A study of Mus musculus with 54 samples.

Results

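The thymus of C57B6 mice 24 h after 10 Gy of gamma irradiation was set against the thymus of unirradiated mice (0 h), with 1 library on each side. The comparison covered 12464 of the 13611 genes in the deposited table. These genes were chosen by values of the same libraries: a gene entered with at least 1 FPKM (fragments mapped to a gene, scaled to transcript length and library size) in either library. The 24 h thymus library also holds small intestine RNA, so genes with at least 20 FPKM in the small intestine at 24 h and a median of at most 1 FPKM over the 9 thymus libraries of 0 to 8 h were left out (331 of the 12795 genes that had passed the minimum). Because the choice rests on this contrast and each side is a single library, the differences between 24 h and 0 h are given as descriptions with no test.

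The series measured RNA by sequencing in thymus, spleen and both parts of the intestine (small and large) before irradiation, hourly from 1 to 8 h and at 24 h, with 1 library per tissue and time (40 libraries), beside 14 libraries of NIH3T3 mouse fibroblasts. The 0 h thymus is labelled as not treated, and every other thymus library comes from mice given 10 Gy. Organs were kept in a stabilising solution, and poly(A) RNA was sequenced without strand information. The sources used here give no age, no sex and no number of mice per library.

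The thymus makes T cells. Most of its cells are double positive thymocytes, which carry both CD4 and CD8 and rearrange their receptor genes with the RAG recombinase, and they rest on a scaffold of cortical and medullary epithelium, macrophages, dendritic cells and fibroblasts. These thymocytes are among the most radiation-sensitive cells of the body and die through p53, which switches on both arrest genes and death genes. Macrophages take up the dead cells, and surviving precursors later refill the organ with help from epithelial signals.

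The tissue label was checked against defining markers. Of the 7 double positive thymocyte markers, 6 were in the table, and their summed level was 1999 FPKM at 0 h, lay between 799 and 2019 FPKM at 1 to 8 h and was 75.2 FPKM at 24 h. The 6 measured thymic epithelium markers summed to 935 FPKM at 0 h, to between 1054 and 1549 FPKM at 1 to 8 h and to 741 FPKM at 24 h, below that range. Of the last sum 282 FPKM were Ccl25, an epithelial chemokine also made in the gut. Foxn1, the master transcription factor of thymic epithelium, read 4.89 FPKM at 0 h and 8.16 FPKM at 24 h, against 0 in the spleen at both times. Between them its listed thymus values ran from 0.003 FPKM at 5 h to 8.18 FPKM at 8 h. The 24 h library therefore carried thymic epithelium, while the 6 measured thymocyte markers were all at least 2-fold lower.

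The make-up of the libraries bears on what follows. The left-out intestinal genes summed to 99.9 FPKM in the thymus at 0 h, to between 99.6 and 214 FPKM at 1 to 8 h and to 17461 FPKM at 24 h. Over these genes the 24 h thymus value was a median of 11.4% of the small intestine value at 24 h (quartiles 8.44% and 14.7%), and this share was used to estimate, for each gene, how much of its 24 h value the intestinal RNA could carry (its intestine share). For Ccl25 it was 47.8%, and after subtraction Ccl25 differed by -1.24 in log2 from 0 h. The 5 enterocyte markers summed to 6.4 FPKM at 0 h and 5459 FPKM at 24 h. Fabp2, an enterocyte fatty acid binding protein, read 0.545 FPKM at 0 h and 2351 FPKM at 24 h. Rn45s, the 45S ribosomal RNA precursor that poly(A) selection normally removes, read 201 FPKM at 0 h, between 152 and 966 FPKM from 1 to 6 h, and 4828, 11486 and 6482 FPKM at 7, 8 and 24 h. Rpph1 and Rmrp, RNA components of RNase P and RNase MRP that also lack a poly(A) tail, were highest in the same 3 libraries. The spacing of the lowest values put the worth of 1 read at 24 h at 3.12 times that at 0 h, so low values at 24 h are the coarser ones.

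**Figure D1:**
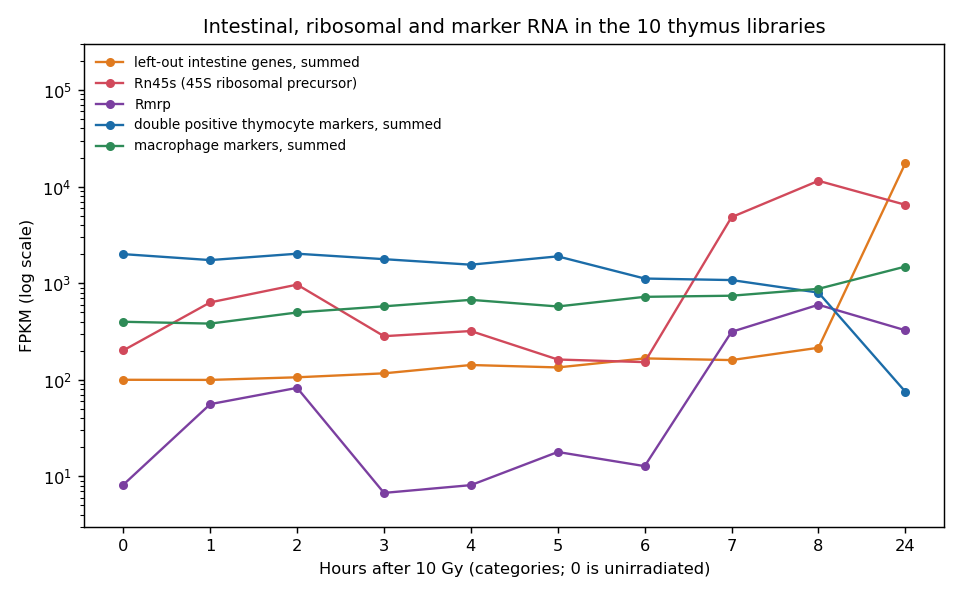
FPKM on a log axis in each of the 10 thymus libraries (hours as categories, 1 point a library) for the summed left-out intestine genes, Rn45s, Rmrp, and the summed markers of double positive thymocytes and macrophages. The intestine genes stand at 17461 FPKM in the 24 h library alone, Rn45s is high at 7, 8 and 24 h, and the thymocyte markers are at 75.2 FPKM at 24 h.

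Across the 12464 genes, 2721 were at least 2-fold higher at 24 h than at 0 h (21.8%), 1577 were at least 2-fold lower (12.7%) and 8166 were neither. Differences are in log2(FPKM + 1), which understates those of genes near 1 FPKM, and the median gene differed by 0.15. As a yardstick, the spread of a difference is the SD of a gene's log2 values among thymus libraries of the same window (1 to 2, 3 to 5 and 6 to 8 h) times the square root of 2; its median was 0.26. After the intestine share was subtracted, 2127 of the genes called higher and 1509 of those called lower still passed 2-fold, and the median difference was 0.03. Intestinal genes such as Zg16 (0.574 FPKM at 0 h, 681 FPKM at 24 h after subtraction) were still among those called higher. Of the genes called higher, 2039 were above every thymus library of 0 to 8 h, and of those called lower 1388 were below every one. A called gene is already past the 0 h library by its call. Over all 12464 genes, called or not, 3944 were above and 3017 below every one of these libraries. In these whole-organ libraries, fewer cells of a type and less RNA per cell cannot be told apart.

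Just inside the minimum of 1 FPKM were Arhgef15 and Chrm2 (1.00 FPKM each), and just outside it were Adam1a and Nfasc. Just inside the intestine limit, Tmem144 (19.95 FPKM in the small intestine) was kept, and Upb1 (20.5 FPKM) was left out.

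**Figure D2:**
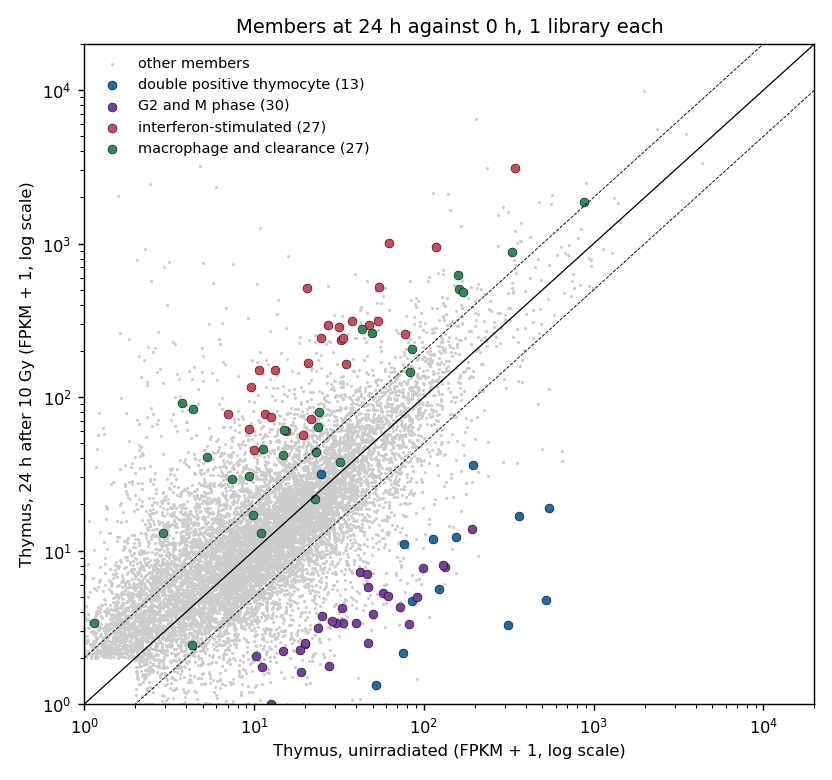
FPKM + 1 of each of the 12464 genes in the unirradiated thymus (x axis) and in the 24 h thymus (y axis), both on log scales, 1 library each, with equality as a solid line and 2-fold as dashed lines. The G2 and M phase genes and 12 of the 13 double positive thymocyte genes lie below the lines, interferon-stimulated and most macrophage genes above.

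The genes of double positive thymocytes were the lowest of all groups. Of 13 measured members of that list, 12 were at least 2-fold lower at 24 h and none was higher, with a median of -4.44. Dntt, which encodes the terminal transferase that adds bases at receptor gene joints (chr19:41029275-41059525, GRCm38), read 527 FPKM at 0 h and 3.79 FPKM at 24 h, after 532, 437, 358, 268, 329, 177, 193 and 136 FPKM at 1 to 8 h. Rag1, a subunit of the recombinase (chr2:101638252-101649532), read 314 FPKM at 0 h, between 176 and 422 FPKM at 1 to 8 h and 2.27 FPKM at 24 h. Its partner and neighbour Rag2 (chr2:101624712-101632528) went from 51.4 to 0.329 FPKM. For these 3 genes the 24 h value lay far under the lowest value of the first 8 h, and the differences of -6.78, -6.59 and -5.30 compare with spreads of 0.33, 0.30 and 0.24.

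Among the coreceptors, Cd8b1 went from 547 to 17.9 FPKM and Cd8a from 365 to 15.8 FPKM. Cd4 went from 195 to 35.1 FPKM, a smaller difference of -2.44. Arpp21, a phosphoprotein of immature thymocytes, and Ccr9, the receptor for the epithelial chemokine Ccl25, were lower by 5.14 and 4.44 on the log2 scale. The 1 member that was not lower was Cd1d1, which presents lipids to natural killer T cells, at 23.6 and 30.7 FPKM.

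The T cell receptor complex and its signalling genes were lower throughout: 16 of 16 passed 2-fold, with a median of -2.53. Thy1, a surface glycoprotein of T cells, went from 655 to 43.4 FPKM, the kinase Lck from 497 to 44.97 FPKM and the adaptor Lat from 353 to 36.4 FPKM. The invariant chains were less far apart. Cd3e went from 176 to 22.5 FPKM, Cd3d from 199 to 52.8 FPKM and Cd3g from 380 to 124 FPKM. Each of these values is below the corresponding range of 1 to 8 h.

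Of 18 T lineage transcription factor and Notch pathway genes, 15 were lower and 1 was higher (median -2.01). The chromatin organiser Satb1 went from 209 to 8.22 FPKM, Tcf7, which sets T cell identity, from 646 to 37.1 FPKM, Myb from 153 to 6.20 FPKM and Bcl11b from 48.3 to 2.65 FPKM. Hes1, a target of Notch, was the exception at 6.86 and 17.8 FPKM, and it had reached 37.6 FPKM at 8 h.

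Genes of mature T cells did not share that difference. Of 13 members, 1 was higher and 2 were lower, with a median of -0.19. Il7r, the interleukin 7 receptor, read 27.1 FPKM at 0 h and 22.3 FPKM at 24 h (named after its values were seen). Gimap6, a GTPase of mature lymphocytes, went from 137 to 50.0 FPKM, while Ms4a6b went from 55.0 to 169 FPKM. In the list of regulatory, effector and natural killer cell genes, 4 of 14 were higher and 2 lower, beside 21.8% and 12.7% of all genes. Gzmb, the killer protease granzyme B, read 5.21 FPKM at 0 h, 4.96 to 14.4 FPKM at 1 to 8 h and 89.6 FPKM at 24 h, of which the intestine could carry 9.98%. Ccl5, a chemokine of effector T cells, went from 129 to 630 FPKM. Ncr1, a receptor of natural killer cells, read 0.198 and 2.91 FPKM. Ctla4 and Ikzf2, genes of regulatory T cells, were lower by 1.17 and 1.02.

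Genes of cell division were low at 24 h. Of 30 G2 and M phase genes, 30 were at least 2-fold lower (median -3.36), and each of them was below all 9 libraries of 0 to 8 h. Ccnb2, a mitotic cyclin, read 81.0 FPKM at 0 h, then 45.4, 26.1, 26.5, 24.96, 41.7, 22.8, 20.2 and 16.4 FPKM from 1 to 8 h, and 2.35 FPKM at 24 h. It was thus already lower within 2 h, partly higher again at 5 h, and lowest at 24 h. Cdc20, an activator of the anaphase promoting complex, went from 45.7 to 1.49 FPKM. Ccna2 went from 90.7 to 3.96 FPKM and the ubiquitin-conjugating enzyme Ube2c from 133 to 6.83 FPKM. Intestinal crypts also divide: the intestine share was at least 25% in 11 of the 30, and the median over the other 19 was -3.03.

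Of 32 DNA replication and S phase genes, 31 were lower (median -2.67). Rrm2, a ribonucleotide reductase subunit, went from 131 to 5.04 FPKM and Uhrf1, which maintains DNA methylation, from 70.4 to 2.30 FPKM. Mcm5, a subunit of the replicative helicase, read 67.997 FPKM at 0 h, then 70.8, 56.7, 33.9, 22.7, 22.9, 13.1, 10.3 and 5.87 FPKM, and 6.12 FPKM at 24 h. Its 8 h and 24 h values hardly differ, in contrast to Ccnb2: 23 of the 32 S phase genes were below every earlier library at 24 h, against 30 of 30 in G2 and M.

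Promoters of the cell division genes are shown because both lists moved as blocks. RefSeq promoter windows (GRCm38.p6, 250 bases before to 50 after the start) were found for 25 of the 30 G2 and M genes and 26 of the 32 S phase genes. TTTGAA, the core of the cell cycle homology region (CHR), was present on either strand in 18 of the 25 G2 and M genes (72.0%), against 17.9% of all 32851 windows and 14.4% of the measured genes with a window. TTCCCGC or TTTGGCGC, 2 forms of the E2F site, were present in 15 of the 26 S phase genes (57.7%). The share was 5.06% of all windows and 10.54% of the measured genes, and 0 of the 25 G2 and M genes had either form. Among p53 targets with a window, TTTGAA was present in 1 of 12 arrest, 3 of 9 apoptosis and 1 of 6 repair genes. An E2F form was present in 0 of 12, 3 of 9 and 0 of 6 of these. The 150 bases before a transcript start are printed 5′ to 3′ with the motif, in either orientation, in capitals: TTTGAA for Cdc20 (chr4:118437344-118437493, minus strand) and Ube2c (chr2:164769779-164769928, plus strand), TTCCCGC for Uhrf1 (chr17:56303187-56303336, plus strand) and TTTGGCGC for Mcm5 (chr8:75109359-75109508, plus strand). The window of Mcm5 belongs to a transcript that starts 41 bases inside the gene as RefSeq lists it, so its last 41 printed bases lie within the gene; the other 3 windows end at the listed start. A match is a run of letters and not a measured binding site.
Cdc20: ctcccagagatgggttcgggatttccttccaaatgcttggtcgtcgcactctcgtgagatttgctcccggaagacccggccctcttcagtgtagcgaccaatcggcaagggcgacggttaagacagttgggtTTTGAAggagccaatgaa
Ube2c: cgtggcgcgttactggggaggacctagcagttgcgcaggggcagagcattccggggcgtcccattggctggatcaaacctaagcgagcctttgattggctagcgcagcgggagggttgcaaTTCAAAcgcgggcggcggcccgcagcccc
Uhrf1: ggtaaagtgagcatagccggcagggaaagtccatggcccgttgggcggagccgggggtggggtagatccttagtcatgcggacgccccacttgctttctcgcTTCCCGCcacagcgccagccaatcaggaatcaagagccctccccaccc
Mcm5: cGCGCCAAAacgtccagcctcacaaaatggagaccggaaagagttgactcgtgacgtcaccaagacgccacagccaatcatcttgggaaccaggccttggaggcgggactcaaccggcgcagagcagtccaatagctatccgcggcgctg

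DNA break signalling and repair genes followed the division genes, with 15 of 20 lower and 1 higher (median -2.12). H2afx, the histone variant phosphorylated at breaks, went from 88.6 to 5.44 FPKM and Xrcc6, the Ku70 end-binding protein, from 148 to 13.2 FPKM. Xrcc5, the Ku80 partner of Xrcc6, was the 1 member that was higher, at 14.5 and 34.1 FPKM, above its range of 5.97 to 17.2 FPKM at 1 to 8 h. Trp53, which encodes p53 itself (chr11:69580348-69591873), read 48.7 FPKM at 0 h, 32.7 to 42.1 FPKM at 1 to 8 h and 14.4 FPKM at 24 h, a difference of -1.69 with a spread of 0.19.

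Targets of p53 split by gene. Of 14 arrest and feedback targets, 8 were still at least 2-fold higher at 24 h and 1 was lower (median 1.44). Cdkn1a, the p21 inhibitor of cyclin dependent kinases (chr17:29090979-29100722), read 9.88 FPKM at 0 h, then 48.3, 137, 228, 268, 233, 274, 254 and 319.8 FPKM, and 196 FPKM at 24 h. Ccng1 went from 32.9 to 231 FPKM after 243 to 336 FPKM at 1 to 8 h. Gdf15, a stress cytokine, had reached 168 FPKM at 6 h and stood at 4.46 FPKM at 24 h, against 0.283 FPKM at 0 h. Mdm2, the ubiquitin ligase that limits p53 (named after its value was seen), read 31.7 FPKM at 0 h, 72.8 to 122 FPKM at 1 to 8 h and 61.5 FPKM at 24 h. Btg2, an antiproliferative cofactor, was the member that was lower, at 103 and 45.2 FPKM, although it read 113 to 279 FPKM at 1 to 8 h. Thus 1 of the 14 was above all earlier libraries at 24 h, and the others were at or below values already reached.

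The p53 targets with roles in cell death gave 5 higher and 2 lower of 12 (median 0.91). Perp, a membrane protein of epithelia and dying cells, went from 38.1 to 243 FPKM, above the 199 FPKM of 8 h, and Eda2r, a death receptor family member, from 0.317 to 7.13 FPKM. Pmaip1, the BH3 protein Noxa, went from 4.31 to 32.0 FPKM and Bax, the pore former, from 48.5 to 149 FPKM. Bbc3, the BH3 protein Puma (named after its value was seen), read 2.63 FPKM at 0 h, 23.6 to 51.0 FPKM at 1 to 8 h and 5.62 FPKM at 24 h, which is less than 2-fold on this scale. Pidd1 and Siva1, both linked to death signalling, were lower by 1.69 and 1.12. In the repair and metabolism group, 4 of 9 were higher, among them the epoxide hydrolase Ephx1 at 27.0 and 142 FPKM, and Ddb2, a sensor of ultraviolet lesions, was lower at 27.0 and 8.65 FPKM. Of the 10 other Bcl2 family genes, 3 were higher and 1 was lower, beside 21.8% and 12.7% of all genes. Their median was 0.39. Over the 8 with an intestine share under 25% the median was 0.0097. The higher ones were the survival genes Bcl2a1a, Bcl2a1b and Bcl2a1d (2.28, 1.61 and 1.32). These 3 are near-identical copies, so reads may be shared between them. Bmf was the member that was lower, by 1.32. Bcl2l1 differed by -0.85, less than 2-fold, at 44.5 and 24.2 FPKM.

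**Figure D3:**
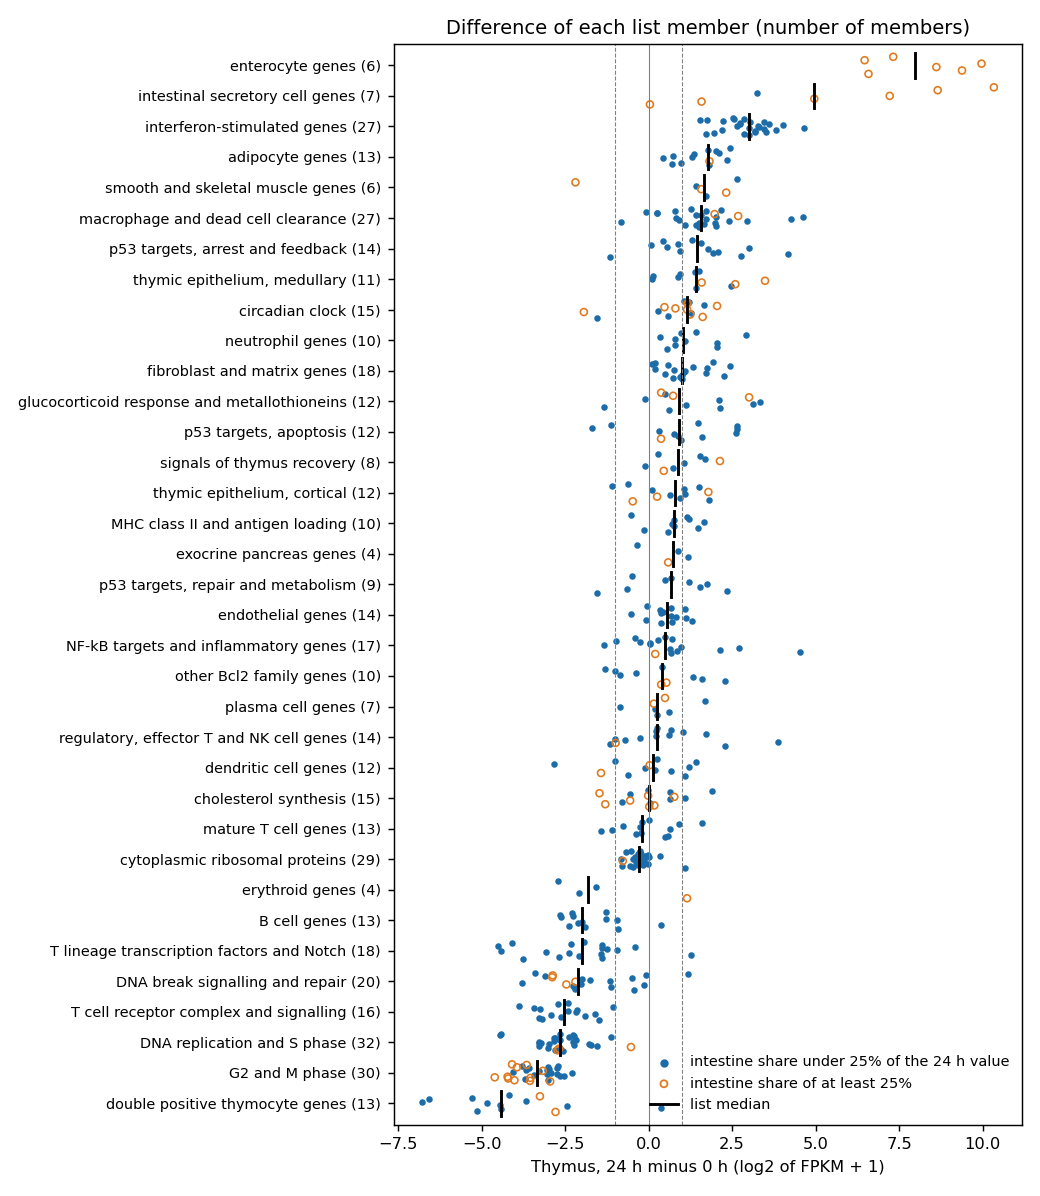
Difference between 24 h and 0 h in log2(FPKM + 1) for each measured gene of the 35 lists (1 point a gene, number of genes in brackets), with the list median as a bar and 2-fold as dashed lines. Open orange points are genes in which intestinal RNA could carry at least 25% of the 24 h value; they fill the enterocyte list and 11 of the 30 G2 and M genes.

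Interferon-stimulated genes were higher as a whole list. All 27 measured members passed 2-fold, with a median of 3.0, and 25 of them were above every library of 0 to 8 h. In none of the 27 did the intestine share reach 25%. Ifit3, an antiviral protein, read 19.4 FPKM at 0 h, then 22.0, 17.6, 16.9, 24.6, 22.3, 31.6, 72.2 and 164 FPKM, and 509.5 FPKM at 24 h. Isg15, a ubiquitin-like modifier, read 61.5 FPKM at 0 h, 55.6 to 101 FPKM at 1 to 6 h, 211 and 396 FPKM at 7 and 8 h and 1013 FPKM at 24 h. Both were near the 0 h level until 5 h and climbed from 6 h on. Ifi44 went from 9.66 to 149 FPKM, the GTPases Mx1 from 8.62 to 115 FPKM and Gbp3 from 12.2 to 149 FPKM, and Rsad2, the antiviral enzyme viperin, from 5.998 to 76.2 FPKM. The 2 genes not at their highest at 24 h were Rsad2 and the chemokine Cxcl10, which had reached 134 and 621 FPKM at 8 h.

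The interferon-stimulated response element was searched as GAAA, any 2 bases and GAAA again on either strand, an addition made after the list's values were seen. It was present in the windows of 13 of the 19 list genes that had one (68.4%), against 3.44% of all windows and 3.89% of the measured genes. The 150 bases before a transcript start of Ifit3 (chr19:34583379-34583528, plus strand) and Isg15 (chr4:156200819-156200968, minus strand, with 3 overlapping matches) are shown, with matches on either strand in capitals. The Ifit3 start used lies 410 bases inside the gene as RefSeq lists it, so this stretch is within the gene's listed span, while that of Isg15 ends at the listed start.
Ifit3: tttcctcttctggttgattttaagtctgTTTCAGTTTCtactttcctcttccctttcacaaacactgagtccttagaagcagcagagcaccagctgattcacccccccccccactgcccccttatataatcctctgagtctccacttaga
Isg15: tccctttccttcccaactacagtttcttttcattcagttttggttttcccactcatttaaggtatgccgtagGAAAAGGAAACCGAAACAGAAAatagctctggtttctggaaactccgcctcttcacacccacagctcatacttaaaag

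Macrophage genes were higher. Of 27 macrophage and dead cell clearance genes, 20 passed 2-fold and none was lower by that much, with a median of 1.56. Gpnmb, a lysosomal glycoprotein, read 2.76 FPKM at 0 h, then 1.97, 2.59, 3.70, 5.41, 6.11, 10.9, 11.3 and 25.6 FPKM, and 90.7 FPKM at 24 h. Fcgr1, the high-affinity IgG receptor, went from 3.35 to 82.2 FPKM, Cd68, a lysosomal marker, from 48.7 to 261 FPKM and Adgre1, the F4/80 antigen, from 10.3 to 44.8 FPKM. C1qb, a complement subunit, went from 158 to 628 FPKM. Cd5l, a scavenger protein, went from 4.31 to 39.7 FPKM. Mertk, a receptor for dead cells, went from 6.41 to 28.1 FPKM, with 53.7% possibly intestinal. The summed level of the 5 defining macrophage markers was 398 FPKM at 0 h, 381 to 874 FPKM at 1 to 8 h and 1486 FPKM at 24 h. The thymocyte markers, lower in the same library, make up a smaller part of its RNA, and their part in this result was not tested.

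MHC class II and antigen loading genes were higher in 4 of 10, with a median of 0.76. H2-Aa went from 898 to 2492 FPKM, H2-Eb1 from 340 to 784 FPKM and H2-DMb1, a peptide exchange factor, from 23.5 to 76.6 FPKM. Dendritic cell genes went both ways, with 3 of 12 higher and 3 lower, beside 21.8% and 12.7% of all genes. Itgax, the integrin CD11c, read 9.26 and 22.4 FPKM and Sirpa 22.5 and 61.0 FPKM, while Siglech, a marker of plasmacytoid dendritic cells, read 6.17 FPKM at 0 h and was listed at 0 at 24 h. Neutrophil genes were higher in 5 of 10 (median 1.02), but 9 of the 10 did not exceed values reached earlier. S100a9, a calcium-binding protein, read 37.2 FPKM at 0 h, 827 FPKM at 8 h and 102 FPKM at 24 h.

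B cell genes were lower in 10 of 13 (median -1.99). Ms4a1, the CD20 antigen, went from 9.38 to 1.13 FPKM, and Pax5, the B lineage factor, from 1.41 FPKM to a listed 0. Sdc1, a plasma cell and epithelial proteoglycan, was the 1 of 7 plasma cell genes past 2-fold, at 8.96 and 31.1 FPKM. Of all genes, 21.8% were higher.

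Thymic epithelium genes were uneven. In the cortical list 5 of 12 were higher and 1 was lower (median 0.79), and in the medullary list 7 of 11 were higher and none was lower (median 1.43). Psmb11, the thymoproteasome subunit of cortical epithelium, read 22.1 FPKM at 0 h, then 22.7, 24.98, 18.4, 8.51, 4.75, 1.90, 1.19 and 0.848 FPKM, and 14.1 FPKM at 24 h. It fell nearly to 0 over the first 8 h. For 6 to 8 h against 1 to 5 h the log2 difference was -2.68 (SE 0.21, limma adjusted p = 1.85e-08). That SE pools the spread over all tissues, and Psmb11 read 0 in the spleen at 0 h and 24 h. The SE may therefore be smaller than one from thymus libraries alone. At 24 h Psmb11 stood 0.62 below the 0 h value in log2. Its spread of 0.84 also holds the fall within the windows, so it cannot show whether the 0 h level was regained. Pax1, an epithelial transcription factor, had a like course of 32.2 FPKM at 0 h, 12.95 FPKM at 8 h and 68.4 FPKM at 24 h. Prss16, a thymus-specific protease, took the opposite course, with 376 FPKM at 0 h, 364 to 678 FPKM at 1 to 8 h and 173 FPKM at 24 h. Ctsl, the cathepsin that trims peptides in the cortex, went from 344 to 1214 FPKM.

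In the medulla, Ccl21a, a chemokine that draws in positively selected thymocytes, went from 274 to 1527 FPKM, and Trp63, the p63 factor of epithelial stem cells, from 10.1 to 30.7 FPKM. Krt5, Krt14 and Krt17, keratins of medullary epithelium, differed by 0.93, 0.89 and 0.13, and Krt17 had reached 1133 FPKM at 8 h. Krt8, Epcam, Cldn3 and Cldn4 are shared with the gut. Intestinal RNA could carry 61.5% of Krt8 and 60.8% of Epcam at 24 h and all of Cldn3, whose difference turned from 2.59 to -1.68 once that share was subtracted. Without genes of such a share, 4 of 9 cortical and 4 of 8 medullary genes were higher.

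Signals linked to regrowth of the thymus were higher in 4 of 8 and lower in none (median 0.89). Il7, the growth factor of early thymocytes, read 9.47 FPKM at 0 h, 9.68 to 19.45 FPKM at 1 to 8 h and 33.0 FPKM at 24 h. Kitl, the stem cell factor, went from 3.84 to 13.05 FPKM, Igf1 from 6.43 to 14.3 FPKM and Il33, an alarmin, from 2.89 to 16.1 FPKM, with 33.0% of the last possibly intestinal. Kitl and Il7 were above their whole range of 0 to 8 h.

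Of 18 fibroblast and matrix genes 9 were higher and none was lower by 2-fold (median 1.0). Of 14 endothelial genes 3 were higher, a share near the 21.8% of all genes (median 0.55), and the 3 defining endothelial markers summed to 39.6 FPKM at 0 h and 30.7 FPKM at 24 h. Mgp, a matrix protein, went from 105 to 571 FPKM, Col3a1 from 8.58 to 44.4 FPKM and Dcn, a collagen-binding proteoglycan, from 93.4 to 307 FPKM. Adipocyte genes were higher in 9 of 13 (median 1.77). Adipoq, the fat hormone adiponectin, read 32.5 FPKM at 0 h, 12.3 to 131 FPKM at 1 to 8 h and 115 FPKM at 24 h, so that its 24 h value lay inside the earlier range. None of the 13 was above every earlier library.

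Other lists gave smaller or mixed differences. Metallothioneins Mt2 and Mt1, which bind metals, read 229 and 369 FPKM at 24 h against 21.8 and 41.3 FPKM at 0 h, after maxima of 2004 and 1681 FPKM at 7 h. Ccl2, a monocyte chemokine of the NF-kB list, went from 2.34 to 76.7 FPKM after 377 FPKM at 8 h. In that list 3 of 17 genes were higher and 1 was lower, shares below the 21.8% and 12.7% of all genes. Circadian clock genes were higher in 9 of 15 and lower in 2. Nr1d1, a clock repressor, read 5.45 and 25.7 FPKM and Arntl, the activator it represses, 18.6 and 5.72 FPKM; after subtraction of the intestine share 6 of the 15 were higher. Cholesterol synthesis genes had a median of 0.02 and cytoplasmic ribosomal protein genes one of -0.30, with 1 of 29 past 2-fold. Erythroid genes were lower in 3 of 4. Hba-a1, an alpha globin, read 9.26 and 1.42 FPKM with 2.25 to 28.4 FPKM at 1 to 8 h. Smooth and skeletal muscle genes were higher in 5 of 6, and Mylpf of skeletal muscle was lower at 25.3 and 4.74 FPKM. Only 3 of the 6 had an intestine share under 25%, and these 3 were higher. Among them, Tagln read 17.9 FPKM at 0 h, 18.7 to 579 FPKM at 1 to 8 h and 116 FPKM at 24 h, inside the earlier range. Of 4 exocrine pancreas genes 1 was past 2-fold, Ctrb1 at 0.971 and 3.44 FPKM. The measured enterocyte and intestinal secretory genes were higher in 6 of 6 and 6 of 7. When the intestine share was subtracted, the enterocyte list turned from a median of 7.97 to -1.77. The secretory list went from 4.96 to 3.22, with 5 of 7 still higher and 1 lower. Subtraction of 1 share for all genes thus left intestinal genes called.

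The 14 lowest genes by the naming rule (at least 5 FPKM in the higher library and 0.1 FPKM in the lower, and still 2-fold apart after the intestine share was subtracted) were, in order, Dntt, Rag1, Dgkeos, Rag2, Arpp21, Cdca7, Cd8b1, Mxd3, Ccnb2, Satb1, Rrm2, Cd8a, Ccr9 and Uhrf1, and all 14 were below every library of 0 to 8 h. Among the 14 highest by the same rule, which passes over enterocyte genes such as Fabp1 and Apoa1, the intestine share was at least 50% in 12. The other 2 were Slfn4, a Schlafen gene of myeloid cells, and Timp1, an inhibitor of matrix proteases. Slfn4 read 1.11 FPKM at 0 h, then 1.35, 1.25, 1.04, 3.65, 5.72, 19.3, 49.2 and 89.8 FPKM, and 184 FPKM at 24 h. Timp1 read 2.43 FPKM at 0 h, 373 FPKM at 8 h and 222 FPKM at 24 h. With the ranking limited to genes with an intestine share under 5%, a step added after the values were seen, they were followed by Saa3, Serpina3n, Mmp3, Lcn2, Spp1, Ms4a6d, Rpph1, Rmrp, Rn45s, Ccl7, Ifit3b and Ms4a4c. Saa3 and Lcn2, acute phase proteins, went from 14.9 to 829 FPKM and from 3.96 to 207 FPKM. Ms4a6d, a gene of monocytes and macrophages, went from 5.20 to 237.5 FPKM. Of these 14 genes, 6 were above every earlier library, and 3 (Rpph1, Rmrp and Rn45s) are RNAs without a poly(A) tail.

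A further 27 genes were listed under 0.1 FPKM in 1 of the 2 libraries and at 5 FPKM or more in the other. The lowest were Droc (59.0 FPKM at 0 h), Gimap1 (41.3 FPKM), Ndufs5 (36.6 FPKM) and Oaz1 (20.1 FPKM), all listed near 0 at 24 h. Ndufs5, a subunit of respiratory complex I, was also listed under 0.2 FPKM at 1, 4, 6 and 8 h and at 18.6 to 40.8 FPKM in the libraries between them. A listed 0 of such a gene is not read as absence. The highest were Synj2bp-cox16, Fuom, A530064D06Rik and Ank3, at 14.6, 12.05, 7.11 and 7.24 FPKM at 24 h.

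The hours before 24 h gave a comparison with several libraries on each side. It uses neither the 0 h nor the 24 h library, but its 8 libraries entered the median that decided which intestinal genes were left out. The 3 thymus libraries of 6 to 8 h were tested against the 5 of 1 to 5 h with limma on log2(FPKM + 1), with neighbouring hours serving as replicates. The spread of each gene was pooled over all tissues, so the SE of a gene expressed mainly in the thymus may be too small. Of 12121 genes tested, 2272 were higher at 6 to 8 h (18.7%) and 1674 were lower (13.8%) at an adjusted p below 0.05. Of the genes at least 2-fold higher at 24 h that were tested, 1177 of 2598 (45.3%) had risen at 6 to 8 h and 24 (0.924%) had fallen, and these 1177 are 51.8% of all that rose. Of the genes 2-fold lower at 24 h, 752 of 1567 (48.0%) had fallen and 27 (1.72%) had risen, and the 752 are 44.9% of all that fell. Without the 7 h and 8 h libraries, which hold the high Rn45s values, 608 genes were higher and 329 lower, and without the 8 h library alone 1594 were higher and 1080 lower. After quantile normalization of the thymus libraries the split was 1885 higher and 2280 lower.

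By list, S phase genes had fallen at 6 to 8 h in 32 of 32, DNA break genes in 17 of 20 and double positive thymocyte genes in 10 of 13, with list medians of -1.57, -1.0 and -0.80. Mcm5 fell by 1.89 (SE 0.25, limma adjusted p = 4.24e-06), Dntt by 1.16 (SE 0.11, limma adjusted p = 1.99e-07) and Rag1 by 0.78 (SE 0.11, limma adjusted p = 1.02e-05). In the G2 and M list 14 of 30 had fallen, and Ccnb2 did not pass (-0.67, SE 0.34, limma adjusted p = 0.141). Interferon-stimulated genes had risen in 23 of 27, neutrophil genes in 9 of 10, NF-kB genes in 16 of 17 and macrophage genes in 16 of 27. Isg15 rose by 1.5 (SE 0.45, limma adjusted p = 0.0125), Slfn4 by 3.82 (SE 0.42, limma adjusted p = 6.25e-07) and Gpnmb by 1.74 (SE 0.27, limma adjusted p = 2.82e-05). Cd4 and Il7 did not pass, with -0.40 and 0.26. Of the 13 adipocyte genes 0 passed by limma, with 1 at an unadjusted p below 0.05.

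**Figure D4:**
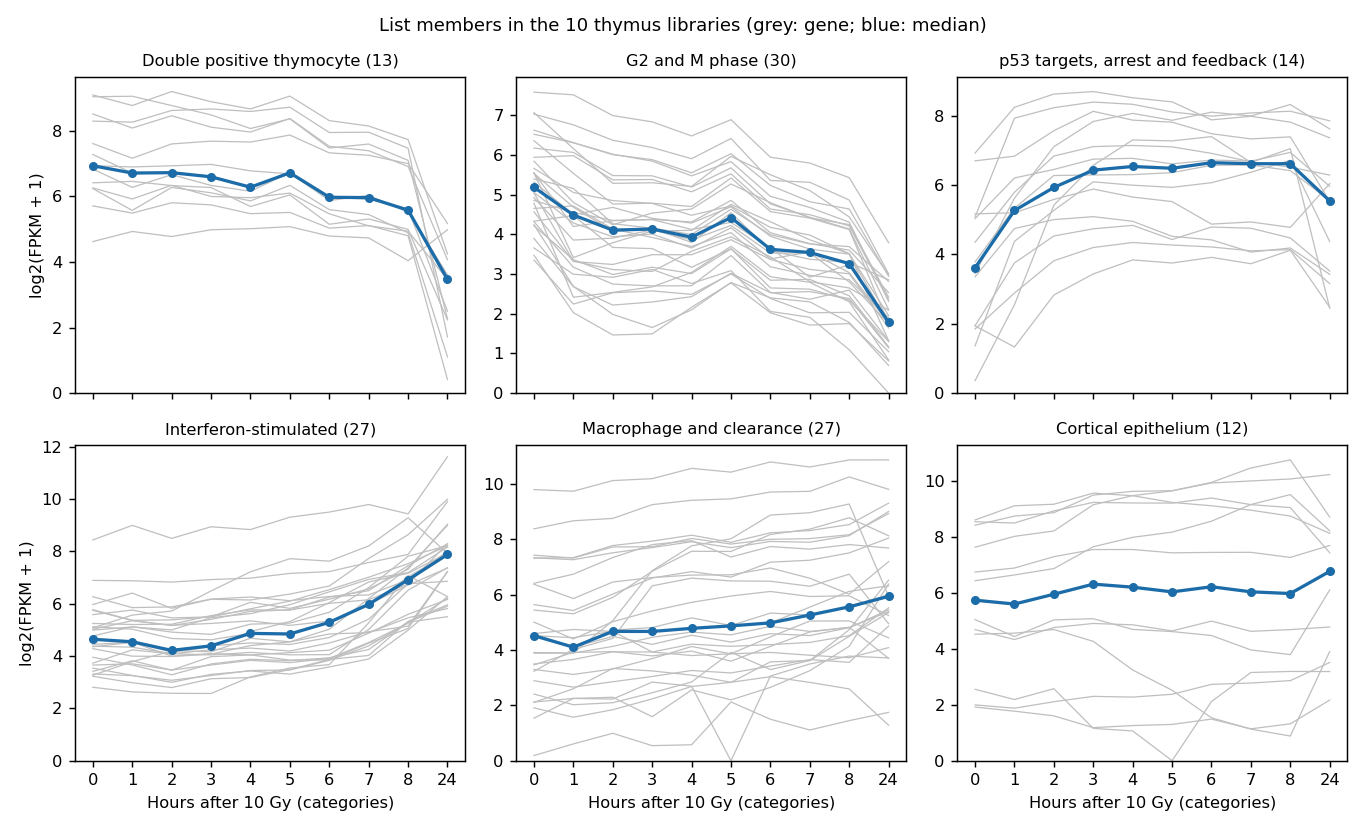
log2(FPKM + 1) of each gene (grey) and the list median (blue) in the 10 thymus libraries for 6 lists, with hours as categories and the number of genes in brackets. The medians of thymocyte and of G2 and M phase genes drop between 8 h and 24 h, p53 arrest targets are already high by 3 h and lower again at 24 h, and interferon-stimulated genes climb from 6 h on.

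The spleen, also rich in lymphocytes, gave values for the same genes at the same times, again with 1 library each and no test. Of the 12464 genes, 1507 were at least 2-fold higher in the spleen at 24 h (12.1%) and 738 lower (5.92%). Of the 2721 genes higher in the thymus, 965 were higher and 66 lower in the spleen, and of the 1577 lower in the thymus, 407 were lower and 26 higher. G2 and M genes were lower in both organs (27 of 30 in the spleen), as were B cell genes (13 of 13 in the spleen). Interferon-stimulated genes were higher in 26 of 27 in the spleen and macrophage genes in 24 of 27. Cdkn1a went from 4.45 to 180 FPKM in the spleen. MHC class II genes went the other way: 8 of 10 were lower in the spleen, and H2-Aa went from 3377 to 1170 FPKM there, against the higher value in the thymus. The T cell receptor list had a median of -1.68 in the spleen and -2.53 in the thymus. Cd4 read 36.1 and 62.3 FPKM in the spleen, the other way from the thymus. Mature T cell genes were lower in 7 of 13 in the spleen, with a median of -1.26 beside -0.19 in the thymus.

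**Figure D5:**
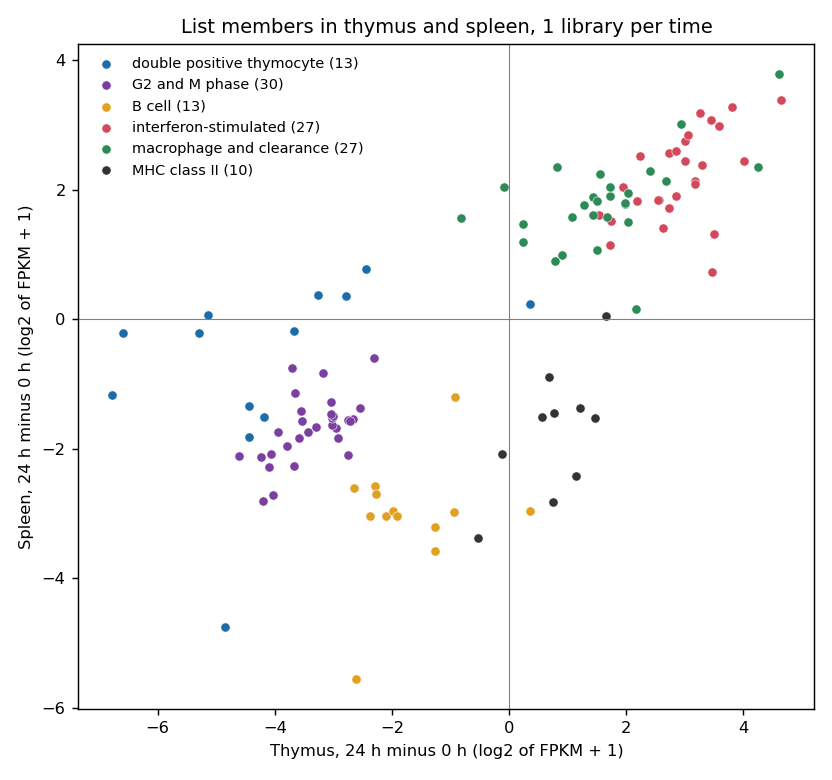
Difference between 24 h and 0 h in log2(FPKM + 1) in the thymus (x axis) and in the spleen (y axis) for each gene of 6 lists, 1 library per organ and time. Interferon-stimulated and most macrophage genes lie at the upper right, G2 and M genes and most B cell genes at the lower left, and 7 of the 10 MHC class II genes at the lower right.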

How the data were processed

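RNA of whole organs was sequenced after poly(A) selection, per the labels' protocols. The submitters' processing notes name TopHat2 2.1.0, Cufflinks 2.1.1 and the mm10 build, and the authors deposited 1 table of FPKM values; no source used here gives fragment counts or says whether libraries were scaled to each other. All 54 columns matched a sample title, and no pair of columns was identical. Summed FPKM ran from 296891 (thymus at 0 h) to 447373 (thymus at 24 h). The spacing of low values against those at 0 h put the worth of 1 read at 0.796 to 3.12, with 34.9% to 45.7% of low values on the steps of up to 3 reads within 0.02 log2.

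Values were transformed as log2(FPKM + 1) in Python 3.11 and R, and a call at 24 h is a 2-fold difference. The test of 6 to 8 h used limma 3.58.1 with a trend, all 40 tissue libraries, a mean per tissue and window, 20 residual degrees of freedom and Benjamini-Hochberg adjustment over 12426 genes with a mean of at least 1 FPKM in the thymus (343 of the 12464 genes were not tested). Its p-values measure the spread between neighbouring hours, pooled over all tissues, which also holds change with time. For genes expressed mainly in the thymus, this pooled spread may be smaller than that of the thymus libraries. With the thymus libraries in a separate fit, 2469 genes were higher and 1718 lower. On simulated data, 200 of the 12426 genes were changed, all with a thymus mean of at least 5 FPKM. The test recovered 88% of 2-fold and 97% of 4-fold changes, with 14 of 12226 unchanged genes called. The simulated noise was independent, with the same spread for a gene in every tissue, no trend within a window and no effect shared by a library. These rates therefore need not hold for the real libraries. The genes described and the 35 lists were chosen with earlier results of these data known. Named were the 14 highest and 14 lowest genes (at least 5 FPKM in the higher and 0.1 FPKM in the lower library, still 2-fold after the intestine share was subtracted), the 4 highest and 4 lowest listed near 0, up to 6 genes per list with called genes of opposite sign, defining markers and a few fixed genes. Others (Mdm2, Bbc3, Il7r, Cd3d, Cd3g, Krt17 and the like) were chosen after their values were seen. A few list genes are not reported here by name. Of 13611 symbols, 13536 matched RefSeq (509 by synonym), from which coordinates and promoters come. Alternatives were another pseudocount, filter, fold, reference and centring, subtraction of the intestine share, quantile normalization and leaving out libraries.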

Additional observations from a re-analysis of the deposited data

Results flagged for a closer look

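Opposite directions in thymus and spleen were seen for 8 named genes that differed at least 2-fold between 24 h and 0 h in each organ; with 1 library per organ and time the difference between the organs was not tested. H2-Aa, H2-Eb1 and H2-Oa, genes of MHC class II presentation, differed by 1.47, 1.20 and 1.14 in the thymus and by -1.53, -1.37 and -2.42 in the spleen. Their spreads of a difference in the thymus were 0.22, 0.24 and 0.18, and their intestine shares were 1.62%, 2.13% and 0.04%. Fkbp5, a glucocorticoid target, differed by -1.35 in the thymus and 1.12 in the spleen. Car2, a carbonic anhydrase, differed by 1.15 in the thymus, where 54.5% of its 24 h value could be intestinal, and by -3.96 in the spleen. Tspan8, an epithelial tetraspanin, differed by 5.91 and -1.72, with an intestine share of 50.5%. Rmrp differed by 5.15 in the thymus, with a spread of 2.69, and by -1.84 in the spleen. Ndufs5 differed by -5.14 and 4.62, and its listing near 0 in several libraries gives it a spread of 4.27.

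A signal outside the genes described came from the left-out intestinal genes. They summed to 17461.2 FPKM in the 24 h thymus library, 140602 FPKM in the small intestine at 24 h, 485 FPKM in the spleen at 24 h and 99.9 FPKM in the unirradiated thymus.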

How the results depend on the processing

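The 2721 genes higher and 1577 lower at 24 h stayed within 1.5 times under another pseudocount, subtraction of the intestine share, centring, a minimum of 5 FPKM, no minimum and a limit of 3 times the spread. Centring gave 2285 higher and 1977 lower, and subtraction 2291 and 1881, so the share of higher calls went from 63.3% to 53.6% and 54.9%. Without the 2426 genes with an intestine share of at least 25%, 1806 of 10038 were higher and 1382 lower, with 56.65% of calls higher. Of the 2721 genes called higher, 915 had such a share. A 4-fold limit left 837 higher and 457 lower. Against the mean of 6 to 8 h, 1294 were higher and 1022 lower; the cause was not tested.

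For 6 to 8 h against 1 to 5 h, leaving out 1 thymus library gave 1594 to 2387 higher and 1080 to 1748 lower, and leaving out 7 h and 8 h together 608 and 329, a setting added after the data were seen. The other 6 settings stayed within 1.5 times. Subtraction turned the enterocyte list to -1.77, Anpep to -2.53, Apoa1 to -2.27, Apoa4 to -2.59, Cldn3 to -1.68, Fabp1 to -1.28, Mttp to -1.25 and Vil1 to -0.70, by construction. Of the 35 list medians, 31 moved by less than the spread under subtraction, 35 under centring and 29 with a pseudocount of 0.1, as did 31 of 34 without genes of a high intestine share. The pseudocount of 0.1 moved the median of B cell genes from -1.99 to -3.22, of recovery signals from 0.89 to 1.44 and of neutrophil genes from 1.02 to 1.68. It also moved DNA break genes from -2.12 to -2.54, p53 repair and metabolism targets from 0.67 to 0.94 and enterocyte genes from 7.97 to 8.67. Subtraction changed the sign of the other Bcl2 family median, from 0.39 to -0.21. No paired analysis was possible because the labels carry no replicate numbers: each tissue and time has 1 library, and the numbers in the titles are hours. Values under about 1 FPKM at 24 h rest on few reads.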

Other observations

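A few genes stood far outside all 9 earlier thymus libraries at 24 h; they were picked after their values were seen. Slamf9, a receptor of myeloid cells, read between 2.82 and 4.21 FPKM from 0 to 8 h and 89.5 FPKM at 24 h, with 1.28 FPKM in the small intestine. Ly6a, the Sca-1 antigen of precursors and activated lymphocytes, read 113 FPKM at 0 h, 446 FPKM at 8 h and 2129 FPKM at 24 h, and 322 FPKM in the unirradiated spleen. Ly6c2, a surface protein of inflammatory monocytes, read 35.3 to 73.2 FPKM from 0 to 8 h and 571 FPKM at 24 h. For these 3 genes the intestine share was 0.163%, 0.333% and 0.121%. Reg3g, an antimicrobial lectin of the gut, read 51.0 FPKM in the unirradiated thymus and 493 FPKM at 24 h, of which the intestine could carry 12.8%.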
